A study of Mus musculus with 8 samples.

Results

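The microRNAs (miRNAs) of the Mir221 and Mir222 hairpins were followed in CD8+ T cells, the killer cells of adaptive immunity, from the spleens of C57BL/6 mice. The members were chosen by name and are mmu-miR-221-3p, mmu-miR-222-3p and mmu-miR-221-5p (the prefix for mouse is left out below), 3 of the 1978 mature miRNAs in the deposited count table. Small RNA had been sequenced from neonatal mice aged 5 to 7 days (n = 4 libraries) and from adult mice aged 12 weeks (n = 4 libraries). No genotype, transgene or treatment is given for either group. The labels name no animals or pools behind the libraries, so that p-values measure the spread between these libraries, which may be technical. CD8+ cells were enriched with magnetic beads, and other spleen cells can remain in such a preparation.

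A miRNA hairpin is cut into a short duplex with a 5p and a 3p strand, and the strand kept by the Argonaute protein guides repression of messenger RNAs, mainly through its seed, bases 2 to 8. miR-221 and miR-222 come from neighbouring hairpins, and their 3p strands are the usual guides. They are known for repressing Cdkn1b, a brake on the cell cycle, and Kit, a growth factor receptor of blood progenitors. They are abundant in endothelium, and in T cells they are known as miRNAs that increase after activation.

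The sequences of the 3 members are shown because the shared seed of the 3p strands is the reason to treat them as a pair. They are given 5′ to 3′ from RefSeq (GRCm38.p6), with the seed in capitals, and all 3 members had an entry.
miR-221-3p: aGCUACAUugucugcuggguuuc
miR-222-3p: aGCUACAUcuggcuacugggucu
miR-221-5p: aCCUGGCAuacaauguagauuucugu
The 3p strands are both 23 bases long and identical over their first 8 bases. Compared base by base they match at 11 of 23 positions. Beyond the seed they also share the run CUGGGU, which begins at base 15 of miR-221-3p and at base 16 of miR-222-3p. Only miR-1928 among the other RefSeq mature miRNAs has the same seed, and its sequence is shown as the remaining seed mate.
miR-1928: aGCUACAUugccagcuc
miR-1928 had no count in any library. A count of 0 allows up to 3 counts, which is 1.15 to 2.34 CPM (counts scaled to depth) in these libraries, and this limit covers counting error only. The seed of miR-221-5p is shared by 0 other mature miRNAs in RefSeq.

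Both hairpins lie on the minus strand of chromosome X (mm10), Mir221 at chrX:19146294-19146388 and Mir222 at chrX:19146893-19146971, with 504 bases between them. Neither lies inside another gene in GENCODE M21. The nearest gene on the side of Mir222 is Gm14636, a noncoding transcript on the same strand, 10009 bases away. On the other side it is the processed pseudogene Gm5383, at 203065 bases. The hairpins are shown with the arms listed in RefSeq in capitals, both arms for Mir221 and the 3p arm for Mir222.
Mir221: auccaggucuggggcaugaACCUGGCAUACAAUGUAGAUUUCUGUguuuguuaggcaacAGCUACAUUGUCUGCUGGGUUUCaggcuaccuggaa
Mir222: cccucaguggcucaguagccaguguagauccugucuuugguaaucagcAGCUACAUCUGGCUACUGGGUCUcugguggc
Each member comes from 1 precursor, and all of its deposited counts are whole numbers, so that no fraction of a shared read shows in them.

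Library totals were 1281032 to 2606630 counts. Levels below are CPM on the TMM scale, in which a trimmed mean of the ratios between libraries fixes their common level, with the SD over 4 libraries. Each log2 fold change divides neonatal by adult, carries its standard error (SE) and comes from edgeR's quasi-likelihood test with Benjamini-Hochberg adjustment over 375 tested miRNAs. Scaling by library totals instead raises the fold change of a miRNA by a median of 0.63 on the log2 scale, so every direction is relative to the TMM scale, and the value by totals is given beside it where the scale matters. For the cell type, the levels of miRNAs abundant in T cells were read. No list for other lymphocytes was used, so these levels do not show how pure the CD8+ cells were. miR-150-5p averaged 54314 ± 2743 CPM in the neonatal group and 140507 ± 37921 CPM in the adult group, and miR-181a-5p averaged 10543 ± 1368 and 9112 ± 665 CPM.

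All 3 members were lower in neonatal than in adult libraries. By the same test 63.2% of all 375 miRNAs changed, and 34.1% were lower in neonatal libraries. miR-221-5p had the steepest fall, followed by miR-221-3p, and the fall of miR-222-3p was the smallest. Counted from the most negative fold change, they took places 19, 32 and 83 of 375.

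miR-221-3p, the guide strand of Mir221, had the highest level of the members. Its neonatal libraries 1 to 4 held 187, 241, 187 and 235 CPM, on 351 to 658 counts. Its adult libraries 1 to 4 held 580, 635, 732 and 707 CPM, on 597 to 1540 counts. The groups were far apart, the highest neonatal library lying below the lowest adult one. The mean was 213 ± 29.6 CPM for the neonatal and 663 ± 69.3 CPM for the adult group, which was 3.12-fold higher on this scale. The log2 fold change was -1.64 ± 0.15 (SE), with an edgeR adjusted p of 1.91e-06. Within same-numbered pairs of libraries the difference was -1.63, -1.40, -1.97 and -1.59. Lower values in 4 of 4 follow from groups that do not overlap, whatever the pairing. With library totals the fold change was -1.01 ± 0.14 (edgeR adjusted p = 4.61e-05), and the groups still did not overlap. How many of all miRNAs do not overlap on that scale was not counted. The libraries of a group varied by 13.9% (neonatal) and 10.4% (adult) of their mean, against 4.55% and 3.22% from counting error alone.

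miR-222-3p, the guide strand of Mir222, fell less. Its neonatal libraries 1 to 4 held 144, 157, 99.8 and 107 CPM, on 229 to 411 counts. Its adult libraries 1 to 4 held 248, 243, 258 and 275 CPM, on 255 to 548 counts. Neonatal libraries 1 and 2 stood above 3 and 4, and all of them lay below the adult libraries. The means were 127 ± 27.8 and 256 ± 14.2 CPM, 2.02-fold higher in adult libraries on this scale. The log2 fold change was -1.01 ± 0.17 (edgeR adjusted p = 0.000248). The SD was 21.9% of the mean for neonatal and 5.55% for adult libraries, where counting error alone gives 5.88% and 5.12%. This fall depends on the scale. Scaled by library totals, neonatal libraries 1 to 4 held 186, 194, 130 and 124 CPM. Adult libraries 1 to 4 held 199, 191, 208 and 223 CPM. Neonatal library 2 then lay above adult library 2, and the fold change of -0.38 ± 0.17 did not pass (edgeR adjusted p = 0.0715).

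miR-221-5p, the strand of Mir221 opposite the guide, was far rarer in the libraries. Its neonatal libraries 1 to 4 held 5.34, 11.1, 3.49 and 4.65 CPM, which rest on 10, 29, 8 and 13 counts. Its adult libraries 1 to 4 held 40.8, 25.2, 20.9 and 20.6 CPM, on 42, 36, 44 and 41 counts. Adult library 1 was the highest and neonatal library 2 the highest of its group, yet the groups did not overlap. The means were 6.13 ± 3.37 and 26.9 ± 9.51 CPM, 4.38-fold higher in adult libraries on this scale. The log2 fold change was -2.07 ± 0.37 (edgeR adjusted p = 0.000347), and -1.44 ± 0.37 with library totals (edgeR adjusted p = 0.00426). This strand passed the count filter only through its adult libraries, as neonatal library 3 fell short with 8 counts. The filter itself thus favoured a fall. A fit without a filter gave -1.97 ± 0.33. Counting error alone gives a variation of 29.0% in neonatal and 15.7% in adult libraries, and 55.0% and 35.4% were observed, so the size of this fall is the least precise of the members.

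The groups of all 3 members did not overlap on the TMM scale, as was so for 30.9% of tested miRNAs among those lower in neonatal libraries. The remaining strand, miR-222-5p, had 3 to 13 counts in neonatal and 5 to 11 in adult libraries, 31 in all in either group, and did not pass the count filter. Its levels of 3.07 ± 1.61 and 5.12 ± 2.59 CPM overlapped. In a fit without a filter its fold change was -0.53 ± 0.54 (edgeR adjusted p = 0.488), and a change of this strand was not detectable at this depth. In RNA of many cells, fewer cells that hold a miRNA and less of it per cell cannot be told apart.

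**Figure D1:**
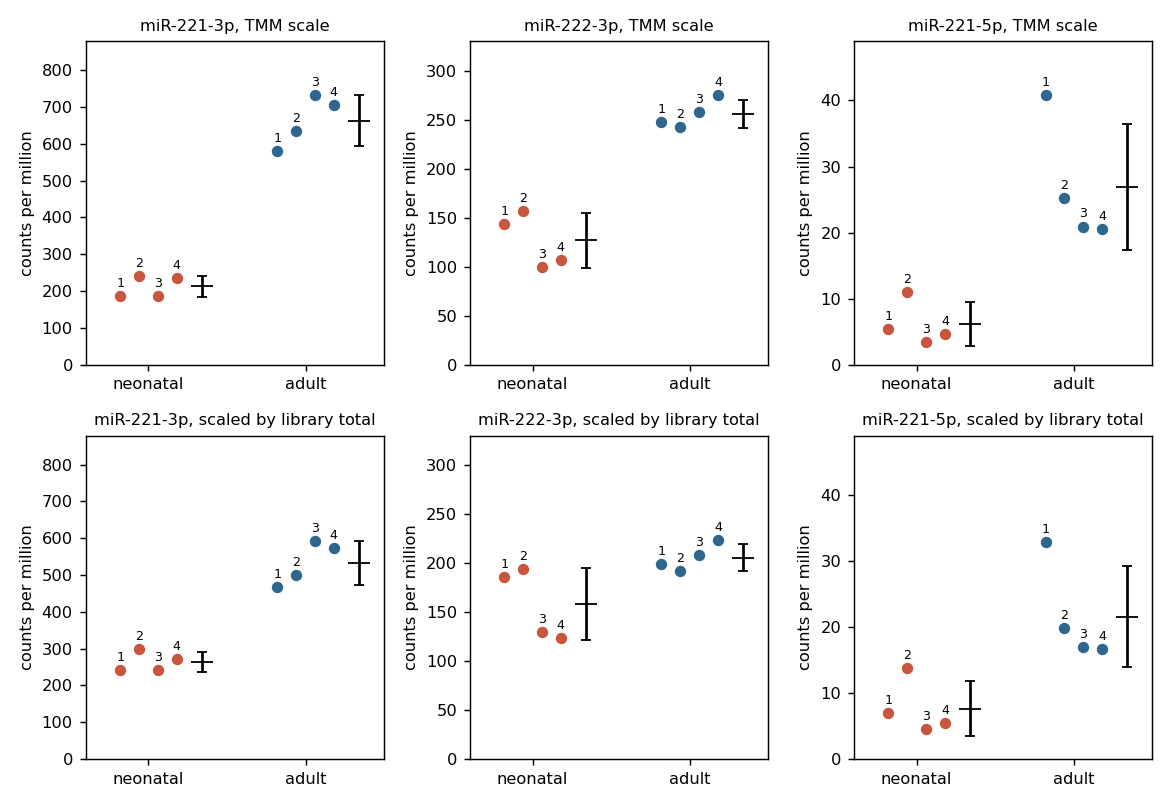
Levels of miR-221-3p, miR-222-3p and miR-221-5p in CPM (vertical axes) in each neonatal (red) and adult (blue) library, numbered by replicate, on the TMM scale (upper row) and scaled by library totals (lower row); bars are mean ± SD of 4 libraries. The groups are apart in every panel except miR-222-3p scaled by library totals, where neonatal library 2 (194 CPM) lies within the adult range of 191 to 223 CPM.

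The make-up of the shared-seed pair also differed between the ages. A ratio of both strands within a library does not depend on scaling, although adapter ligation favours some sequences, so only its change is read, not its level. miR-221-3p made up 56.5%, 60.6%, 65.2% and 68.8% of the counts of both 3p strands in neonatal libraries 1 to 4. It made up 70.1%, 72.3%, 74.0% and 72.0% in adult libraries 1 to 4. All neonatal shares lay below all adult shares, and how often other pairs of neighbours separate in this way was not counted. However, neonatal library 4 (95% Wilson interval 65.7% to 71.6%) and adult library 1 (66.9% to 73.0%) overlapped within counting error. The mean share was 62.8% ± 5.34 in neonatal and 72.1% ± 1.60 in adult libraries.

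On the log2 scale the ratio of miR-221-3p to miR-222-3p was 0.76 ± 0.33 (SD) in neonatal and 1.37 ± 0.11 in adult libraries. The difference was -0.61 ± 0.17 (SE), with a 95% interval of -0.999 to -0.22. It was tested with limma over all 85 pairs of neighbouring hairpins that lie within 10000 bases on the same strand (limma adjusted p = 0.0141). Of these pairs, 44.7% had a ratio that changed with age. The pairs are not all distinct, since miRNAs summed over several hairpins, such as miR-669a-5p and miR-467a-5p, enter several of them. The pair of miR-133a-3p and miR-1a-3p is counted in both orders, and so is that of miR-669a-5p and miR-467a-5p. The size of the change for Mir221 and Mir222 took place 41 of 85, near the median of 0.55. Unequal change was thus common among the pairs as counted here. An exact two-sided permutation test gave p = 0.0286, the smallest possible with 4 libraries per group, and 0.0571 after adjustment over the 2 ratios tested. Neonatal libraries 1 and 2, which had the higher levels of miR-222-3p, had the lowest shares of miR-221-3p. Together the 2 seed-sharing strands took 0.0422% ± 0.00523 of all counts in neonatal and 0.0738% ± 0.00699 in adult libraries.

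**Figure D2:**
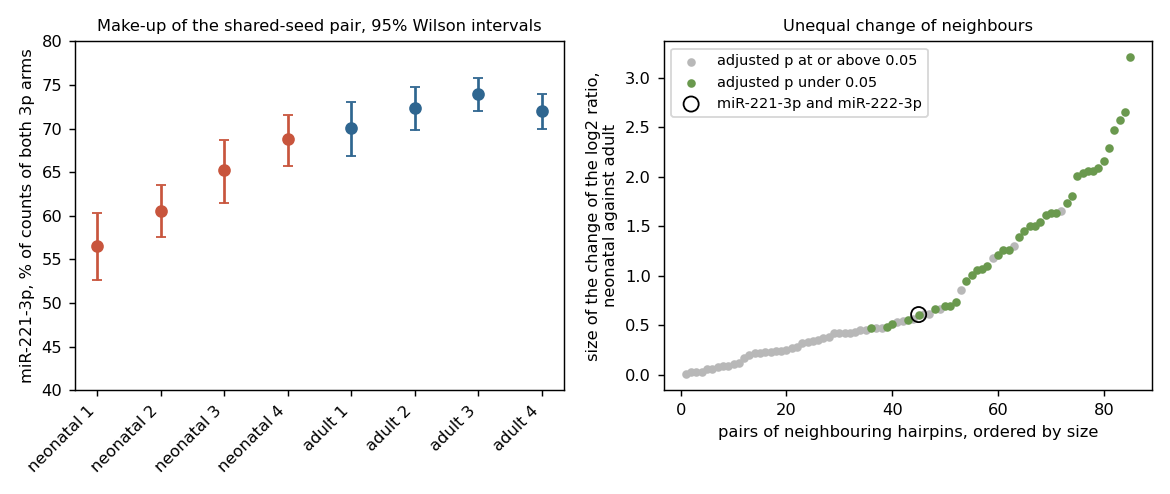
Left, share of miR-221-3p in the counts of both 3p strands (vertical axis, %) in each neonatal (red) and adult (blue) library, with 95% Wilson intervals; shares run from 56.5% to 68.8% in neonatal and from 70.1% to 74.0% in adult libraries. Right, size of the change of the log2 ratio between neonatal and adult libraries for 85 pairs of neighbouring hairpins in order of size, green where the limma adjusted p was under 0.05; the ringed pair of miR-221-3p and miR-222-3p lies in the middle of the order.

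The strands of the Mir221 hairpin were compared in the same way. In neonatal libraries 1 to 4, miR-221-5p made up 2.77%, 4.39%, 1.83% and 1.94% of the counts of both Mir221 strands. The adult shares were 6.57%, 3.82%, 2.78% and 2.83%. Neonatal library 2 lay above adult libraries 2, 3 and 4, so the groups overlapped. The log2 ratio of miR-221-5p to miR-221-3p changed by -0.53 ± 0.36 (SE), with a 95% interval of -1.31 to 0.26, which did not pass (limma adjusted p = 0.271 over 79 hairpins). The exact permutation test gave p = 0.314, also 0.314 after adjustment. Of these hairpins, 40.5% had a ratio of strands that changed. The interval allows a fall of the 5p strand beyond that of its guide as well as an equal fall.

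miR-221-3p and miR-222-3p belong to a list of 12 miRNAs that follow T cell activation, all of which were tested. Of these, 6 were lower and 5 higher in neonatal libraries, against 34.1% and 29.1% of all tested miRNAs, and the median fold change was -0.41, against -0.05 for all. The 6 lower ones include miR-221-3p and miR-222-3p themselves, so both this count and this median rest in part on the members. With library totals 3 were lower and 5 higher, where the background is 18.1% and 49.6%. Those lower with either scale were miR-221-3p, miR-155-5p, which effector CD8+ T cells depend on, and miR-146a-5p, known to dampen NF-kB. miR-155-5p, at 376 ± 27.0 (neonatal) and 1266 ± 172 CPM (adult), changed by -1.75 ± 0.15, close in size to miR-221-3p, and miR-146a-5p by -2.86 ± 0.15. The TMM scale alone gave a call to miR-222-3p, to miR-146b-5p (-0.66 ± 0.15) and to miR-96-5p (-0.64 ± 0.25). Higher with either scale were miR-210-3p (2.65 ± 0.27), induced by low oxygen, miR-132-3p (1.28 ± 0.28), miR-31-5p (1.87 ± 0.26), and both miR-182-5p (0.81 ± 0.14) and its cluster mate miR-183-5p (1.60 ± 0.14). miR-210-3p and miR-31-5p, with lowest counts of 3 and 6 in adult libraries, passed the count filter only through their neonatal libraries. For these miRNAs the filter itself favoured a rise, and the count of higher ones rests in part on them. miR-21a-5p, the most abundant of the list, had a fold change of -0.19 ± 0.24 without a call, or 0.44 by library totals.

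Other miRNAs of chromosome X moved in both directions. Of 36 tested miRNAs whose placed hairpins all lie on chromosome X, 15 were higher and 10 lower in neonatal libraries, the members being 3 of the 10. miRNAs with a further hairpin on another chromosome, such as let-7f-5p and miR-19b-3p, are left out. The median fold change of the 36 was 0.30, where 29.1% of all tested miRNAs were higher and 34.1% lower. With library totals 24 were higher and 7 lower, where the background is 49.6% and 18.1%. Some of the 36 passed the count filter only through the group where they are high. Among them are miR-505-5p, miR-18b-3p and miR-503-5p (neonatal) and miR-221-5p (adult). For these the filter itself favoured the direction, so the counts and the median rest in part on it. The largest fall among the 36 was that of miR-504-5p (-2.57 ± 0.18), and miR-221-5p was next. The largest rise was that of miR-505-5p (3.19 ± 0.46), which rests on 1 to 66 counts. miR-361-3p, the most abundant of the 36 by its mean over all 8 libraries though not in the neonatal ones, fell from 2558 ± 152 to 1102 ± 73.8 CPM (-1.21 ± 0.13).

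**Figure D3:**
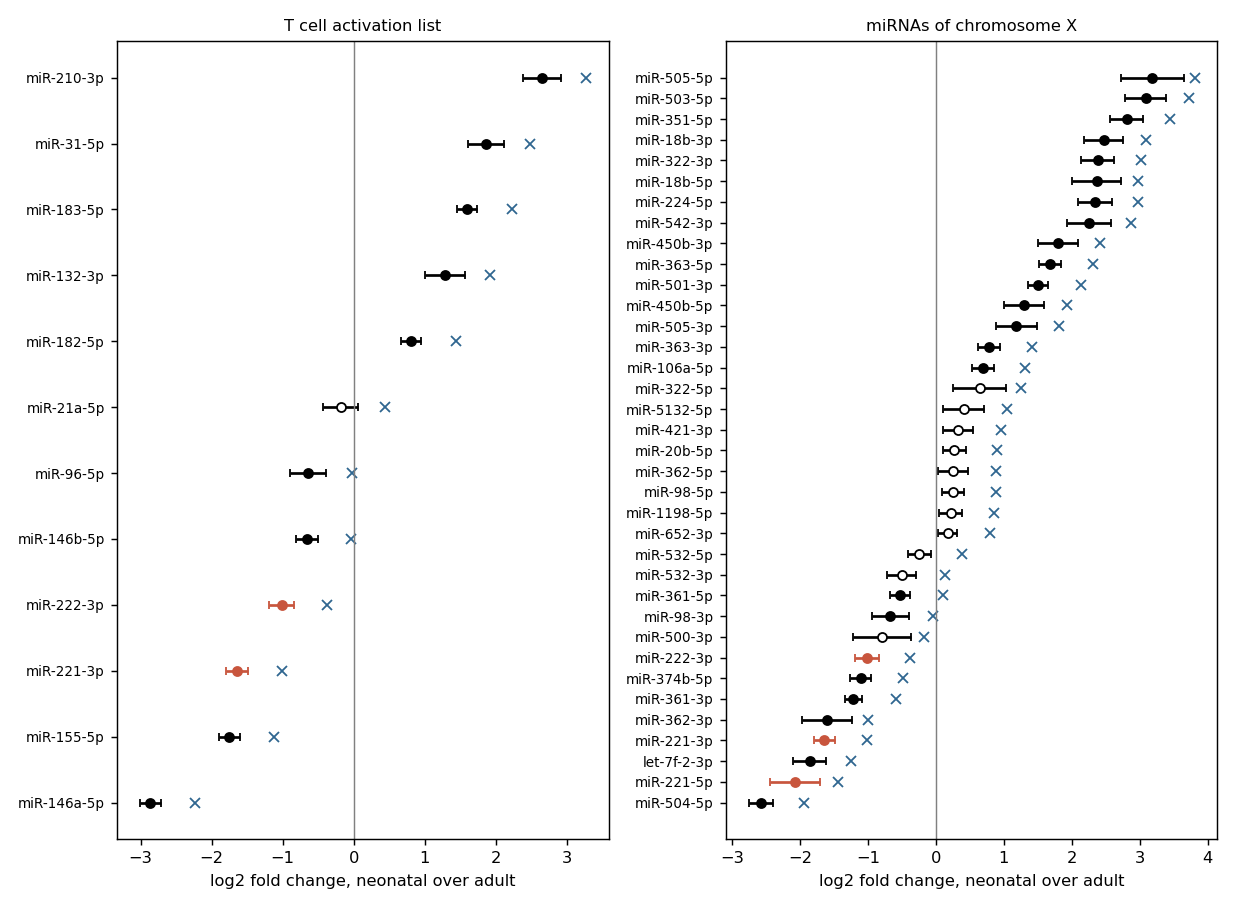
Log2 fold change, neonatal over adult, of the 12 miRNAs of the activation list (left) and the 36 tested miRNAs placed only on chromosome X (right). Circles with bars are TMM values ± SE, filled where edgeR's adjusted p was under 0.05 and red for the members, and crosses are values by library totals; crosses lie to the right of the circles throughout, and the members lie in the lower part of either list.

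The patterns nearest to the members were found among 158 other miRNAs with a mean of at least 100 CPM, by the root mean square difference of log2 CPM over the 8 libraries after each miRNA was centred on its own mean. For miR-221-3p the nearest were miR-467a-5p (0.12), miR-669a-5p (0.20), miR-378c (0.20), miR-378a-5p (0.21) and miR-155-5p (0.22), where the median over all 158 was 0.74. For miR-222-3p they were miR-361-3p (0.19), let-7a-1-3p (0.25), let-7c-2-3p (0.25), miR-140-3p (0.25) and miR-378d (0.25), with a median of 0.59. let-7a-1-3p and let-7c-2-3p had nearly the same counts and may share reads. The seed-sharing partner was not among the nearest. miR-222-3p took place 29 in the order for miR-221-3p, and miR-221-3p place 32 in the order for miR-222-3p, at a difference of 0.37. The fold changes of the 5 nearest were -1.75 to -1.33 for miR-221-3p and -1.27 to -0.92 for miR-222-3p. This closeness follows from the choice, as the centred pattern holds the difference between the ages. The distance of 0.37 between the 3p members likewise reflects in part their unequal fold changes.

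Of the miRNAs of other cell types that could remain after the enrichment, the endothelial, erythroid and stromal ones that passed the count filter had higher neonatal levels. By the same test 29.1% of all miRNAs were higher, and 49.6% with library totals. Both endothelial miRNAs were higher, and their summed level was 125 to 160 CPM in neonatal and 46.6 to 77.0 CPM in adult libraries. miR-126a-3p, the main endothelial miRNA, stood at 130 ± 15.6 and 54.5 ± 13.4 CPM (1.25 ± 0.20). miR-126a-5p stood at 8.33 ± 2.01 neonatal and 2.33 ± 1.28 adult CPM (1.77 ± 0.41). It passed the count filter only through its neonatal libraries, so the filter itself favoured a rise. Of 5 erythroid miRNAs the 3 tested were higher, with a summed level for the list of 308 to 775 against 120 to 252 CPM. miR-486a-5p stood at 1.84 ± 0.31, miR-486b-5p, which shares its reads, at 1.82 ± 0.33, and miR-451a, the main red cell miRNA, at 0.97 ± 0.22. Of 7 stromal miRNAs the 3 tested were higher, with a summed level of 115 to 170 against 38.0 to 84.0 CPM, and miR-10b-5p, both the most abundant and the one with the smallest p, rose by 1.51 ± 0.24. The 4 untested stromal miRNAs reached no more than 10 counts, and of these miR-199a-5p (1.19 ± 0.98 neonatal, 3.00 ± 2.57 adult CPM) and miR-145a-5p (0.41 ± 0.32 and 0.67 ± 0.47 CPM) had the higher mean in adult libraries. Neither of the 2 myeloid miRNAs passed the filter, with a summed level of 3.49 to 8.54 and 2.85 to 9.10 CPM, and miR-223-3p had 1 to 20 counts. No miRNA of these lists was at 0 in every library. The part of these cells in the falls of the members was not tested.
Of the 6 miRNAs of the T cell list, 5 were lower in neonatal libraries, where the background is 34.1%. With library totals 3 were lower and 1, miR-181a-5p, higher, where the background is 18.1% and 49.6%. The summed level of the list was 91595 to 98638 CPM in the neonatal and 189033 to 245534 CPM in the adult group. miR-150-5p, both the most abundant and the one with the smallest p, changed by -1.37 ± 0.18, and miR-181a-5p (0.21 ± 0.14) did not pass. The part of this difference in the falls of the members was not tested.

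The falls of miR-221-3p and miR-221-5p passed under each of the 10 other ways of processing the counts. For miR-221-3p the fold change ran from -1.72 to -1.01, and for miR-221-5p from -2.11 to -1.44, with library totals as the smallest fall for both. For miR-222-3p it ran from -1.23, with an offset for GC content and the replicate number as a block, to -0.38 with library totals, the only setting in which it did not pass.

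**Figure D4:**
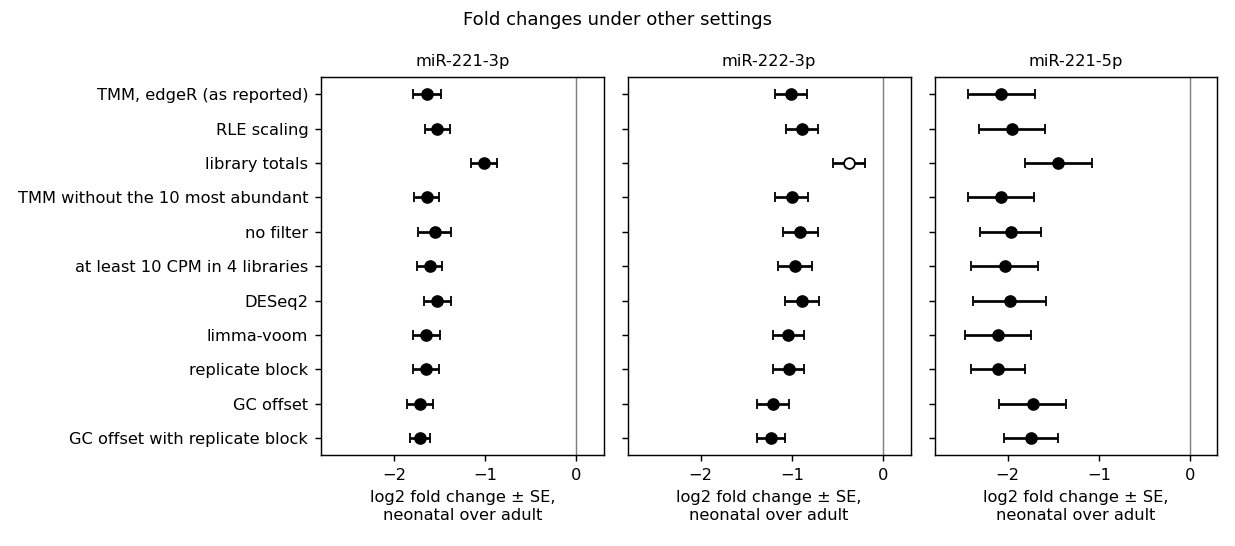
Log2 fold change ± SE, neonatal over adult (horizontal axes), of miR-221-3p, miR-222-3p and miR-221-5p as reported and under 10 other settings (rows); filled circles have an adjusted p under 0.05. The open circle is miR-222-3p scaled by library totals (-0.38), and every value lies below 0.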

How the data were processed

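The deposited table holds estimated counts, without normalization, for each mature miRNA on its precursor in 4 neonatal and 4 adult libraries. Reads were placed on mm10, per the submitters' processing notes, and the sources used here name no aligner, counter or miRNA release. Per the labels' protocols, RNA was extracted with Trizol and libraries were made with the NEBNext small RNA kit. Here counts were summed over precursors, rounded to whole numbers, filtered by filterByExpr (minimum count 10, minimum total 15) and tested with edgeR 4.0.16 in R 4.3.3 (TMM, robust quasi-likelihood F test, age group as the only term, adjusted p under 0.05). The SE is the size of the fold change over the square root of F. Neonatal libraries had TMM factors of 1.16 to 1.30, adult ones of 0.788 to 0.812. Log2 ratios (0.5 added to counts) were tested with limma 3.58.1 with a trend on abundance. Hairpin positions came from GENCODE M21, equal to RefSeq for both member hairpins. Scripts were tested on simulated data. No library was a copy of another of its group (chi-square over degrees of freedom from 15.7 to 362).

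Deviations from the group means correlated at r = 0.256 to 0.415 in the 4 same-numbered pairs, all above 0.1. On this check alone the replicate number was used as a block in an alternative fit. Unlike numbers reached 0.482, above every same-numbered pair, so the check does not establish a pairing. The labels do not say what the numbers stand for. The members, the lists and the tests were chosen with earlier results of these data known. miRNAs were named by rule: the members and miR-222-5p, seed mates, the activation list, in other lists the smallest p and the most abundant, on chromosome X the extremes and the most abundant, and the 5 nearest patterns for each 3p member. Other names were chosen after their values were seen. Alternatives were other scalings, filters and tools (DESeq2 1.42.0, limma-voom), the replicate block, an offset for GC content of the mature sequence (known for 314 of 375, 83.7%) and leaving out each library.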

Additional observations from a re-analysis of the deposited data

How the results depend on the processing

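The fold change of miR-222-3p weakened to -0.38 with library totals (edgeR adjusted p = 0.0715), while in the other 9 settings it kept its direction and its call. miR-221-3p and miR-221-5p kept both in all 10. The difference in the ratio of miR-221-3p to miR-222-3p, -0.61, did not pass by the exact permutation test after adjustment over 2 ratios (0.0571), which with 4 libraries per group could not have gone lower for a single ratio than 0.0286 before adjustment. The ratio of miR-221-5p to miR-221-3p passed in no setting. In a fit with the replicate block, fold changes were -1.64, -1.04 and -2.11 for miR-221-3p, miR-222-3p and miR-221-5p, the ratio of the 3p strands changed by -0.61 and that of the Mir221 strands by -0.53 (limma adjusted p of 0.0109 and 0.164), 265 miRNAs changed in place of 237, and the block altered no call of a member. Leaving out 1 library at a time gave -1.73 to -1.55 for miR-221-3p, -1.05 to -0.85 for miR-222-3p, -2.47 to -1.85 for miR-221-5p, -0.74 to -0.48 for the ratio of the 3p strands (limma adjusted p at most 0.0481), -0.78 to -0.24 for that of the Mir221 strands and 220 to 253 changed miRNAs. The last ratio moved by over 1.5 times without adult library 1, to -0.24. The count over all miRNAs was 213 to 287 over the 10 settings, and library totals moved its split from 109 higher and 128 lower to 186 and 68. Depth limits miR-221-5p and miR-222-5p, with at most 44 and 13 counts per library.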
